A study of Zea mays with 3 samples.

Results

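The maize lines F3-152 and F3-600 were compared directly with each other by anti-CENH3 ChIP-seq, with 1 library per line. The members of the comparison were 10 chromosome regions, which were all regions called as a CENH3 domain in at least 1 of the lines, out of 210639 bins of 10 kb on chromosomes 1 to 10. The inbred line B73, the third library of the series, was not used to choose any bin and is given only as a level beside some regions. All libraries came from young leaves, and nuclei were digested with micrococcal nuclease before precipitation with a rabbit antiserum raised against peptides of maize CENH3. The labels give each F3 line by its name alone and call B73 the control, and the series title speaks of irradiated materials. The parents of the F3 lines, their irradiation and the number of plants per library are not given in the sources used here, and the paper describes B73 only.

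CENH3 is the histone H3 variant that takes the place of canonical H3 in the nucleosomes of active centromeres, and the kinetochore is built on it. In maize the DNA under it is mostly the satellite CentC and the centromeric retrotransposons called CRM, with stretches of unique sequence between them. The position of a centromere is kept by CENH3 chromatin rather than by the DNA alone, so CENH3 can lie on different sequence in different lines, and centromeres can arise at places without centromeric repeats. In ChIP-seq such a centromere appears as a broad domain of enriched reads over unique sequence.

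The F3-152 library held 21026602 aligned reads with a median of 90 reads per non-empty bin, and the F3-600 library held 14454963 with a median of 64. Every level below is the read count of a bin divided by the median of its own library, so a level of 1 is the typical bin. The libraries also differed in fragment length, with a median of 169 bp in F3-152 and 306 bp in F3-600. The reads of each library named 1 sequencing instrument, and the names were not compared between libraries. A difference between lines could therefore also be one between runs. No input DNA was analysed here, so the amount of CENH3 on a sequence, the number of its copies in a line and the mapping of a line's sequence to the B73 genome cannot be told apart. A level is an average over the leaf cells of a library, so fewer cells with CENH3 at a place and less CENH3 per cell cannot be told apart either. Because each line was sequenced once, the lines were not tested against each other. The intervals are 95% intervals over fragments and cover counting error only.

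CENH3 formed 8 domains in F3-152 and 7 in F3-600. A bin counted as enriched from 10 times the median upwards, and a domain was a group of at least 10 enriched bins with no gap of more than 500 kb between neighbours. F3-152 had 557 enriched bins in its domains and F3-600 had 404, where 0.315% of the non-empty bins of F3-152 and 0.241% of those of F3-600 were enriched over all chromosomes. These bins covered 5.57 Mb with 5.36% of the reads in F3-152, and 4.04 Mb with 3.91% of the reads in F3-600. By position, 5 domains were shared, which means that the spans overlapped and that common bins made up at least 50% of the enriched bins of the smaller domain. Another 2 domains were called in F3-152 only and 2 in F3-600 only, with no domain of the other line within 5 Mb. The remaining domain of F3-152, on chromosome 9, lay 2.27 Mb from the nearest domain of F3-600 with no enriched bin in common, and by the same rule counted as shifted. These domains were called on the levels that are compared here, so the ratios at them describe the size of the difference and test nothing.

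**Figure D1:**
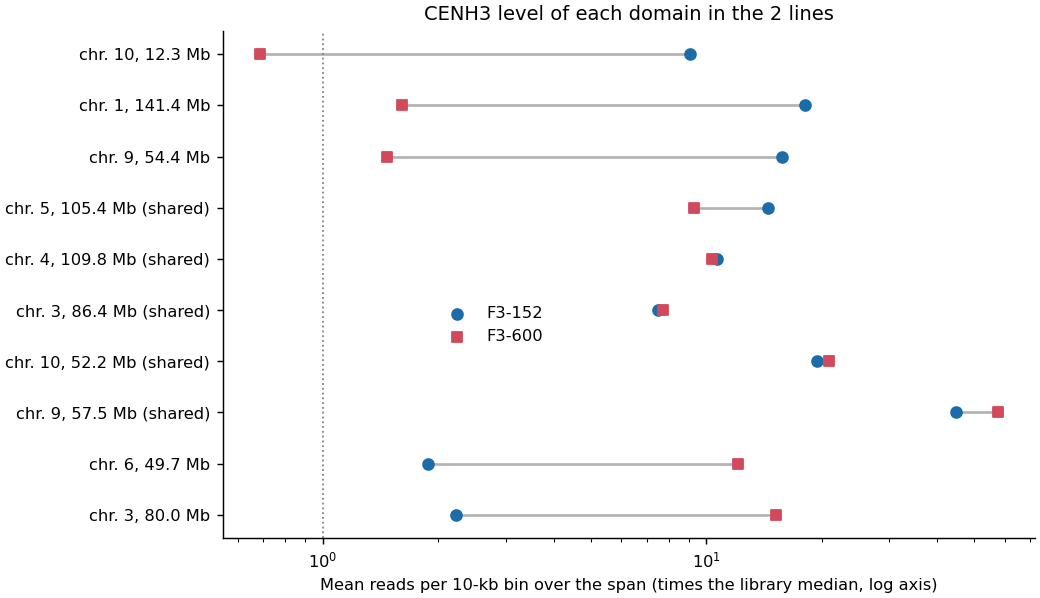
Mean level of each of the 10 domain regions in F3-152 (circles) and F3-600 (squares), in times the library median on a log axis, with a dotted line at 1; 1 library per line, so no error bars are drawn. The regions on chromosomes 1, 9 (54.4 Mb) and 10 (12.3 Mb) lie far to the right in F3-152, those on chromosome 6 and chromosome 3 (80.0 Mb) lie far to the right in F3-600, and the shared regions lie close together.

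F3-152 alone had a domain on chromosome 1. It spanned 140710001 to 142100000 (B73 RefGen_v4, as all positions here), and 99 of its 139 bins were enriched. The mean level over the span was 18.1 in F3-152, with quartiles of 9.31 and 24.6 and a highest bin of 57.5. The same bins had a mean of 1.61 in F3-600, with a highest bin of 2.59. The levels of the lines therefore did not overlap over most of the span, and 138 of its bins were higher in F3-152, the last one being empty in both. In fragments, 114587 (113924 to 115252) were counted in F3-152 and 7263 (7097 to 7432) in F3-600, a scaled ratio of 11.3 (11.1 to 11.6). The level of F3-600 inside the span was that of its surroundings, since the median of the 200 bins within 1 Mb on either side was 1.58 in F3-600 and 1.91 in F3-152. B73 had a mean level of 1.26 over the span.

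No domain was called on chromosome 1 in F3-600. Its highest stretch of 1 Mb there was at 136530001 to 137530000 with a median level of 2.14, and F3-152 had 2.17 over the same bins. A narrow site within this stretch, from 137000001 to 137120000 and below the size of a domain, held 8 enriched bins in F3-600 and 6 in F3-152. On chromosome 1, at this threshold, merging distance and domain size, the uniquely mapped reads thus placed a broad CENH3 domain in F3-152 and none in F3-600.

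The second domain of F3-152 alone lay on chromosome 10, from 11840001 to 12770000, and it was interrupted. Of its 93 bins, 33 were enriched, with a mean level of 9.06 and a highest bin of 48.6 in F3-152. F3-600 had a mean of 0.685, below the typical bin of its own library, and a highest bin of 2.31. The scaled ratio of fragments, 38747 (38362 to 39135) against 2126 (2037 to 2218), was 13.1 (12.5 to 13.7). The surroundings differed in the same direction. In the 200 bins within 1 Mb on either side, the median level was 1.79 in F3-152 and 0.828 in F3-600. In this region 24 bins of F3-152 were below 0.25 times the median, and 0 of them reached 0.5 times the median in F3-600, whereas 16 of them did in B73. F3-600 had 34 bins below 0.25 times its median, of which 25 reached 0.5 in B73. The low bins of F3-152 were thus low in F3-600 too, and most of them had reads in B73. The domain of F3-152 rose between these low stretches.

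**Figure D2:**
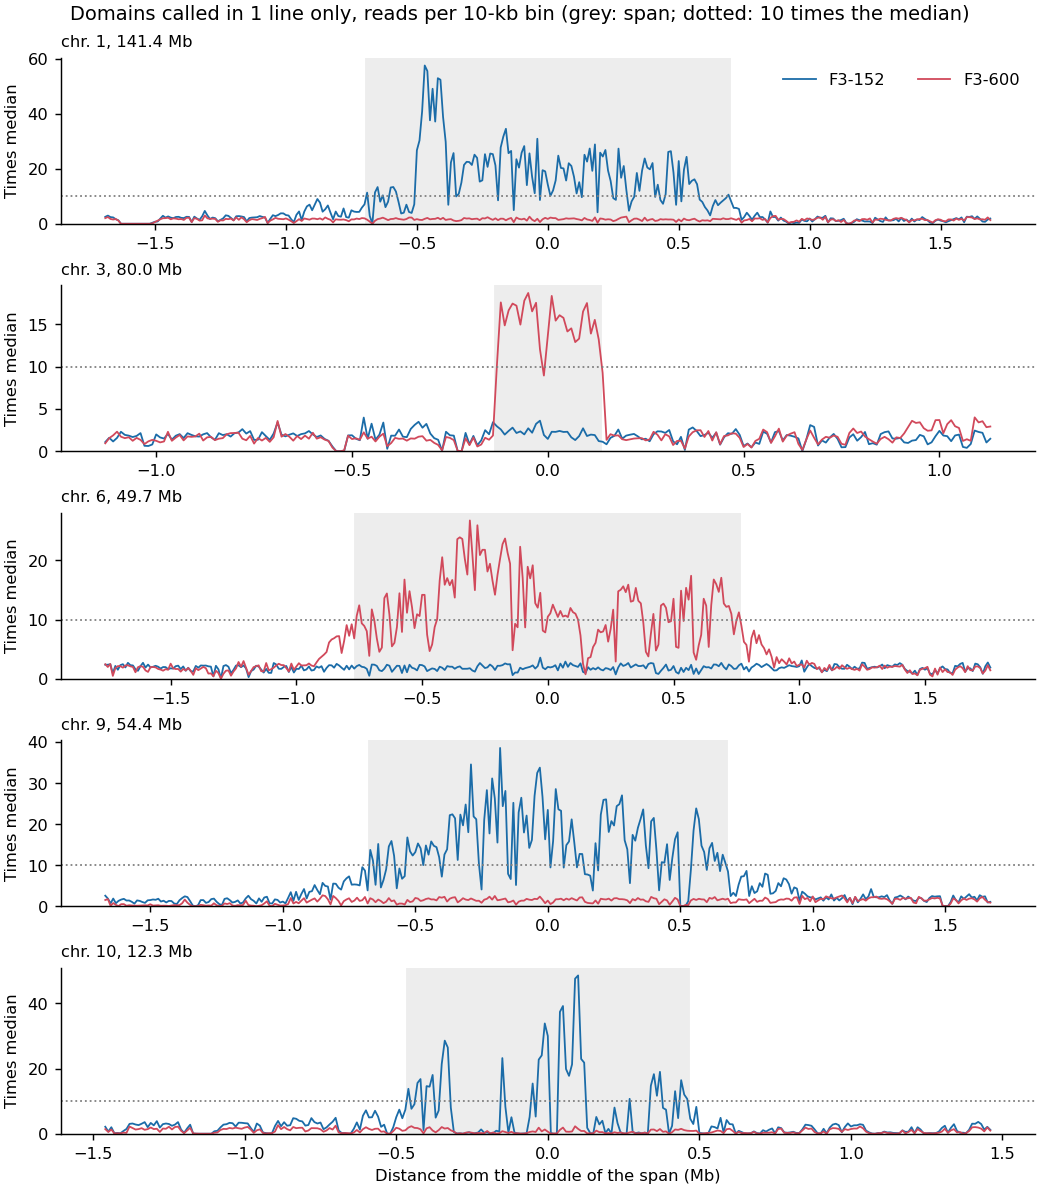
Level of each 10-kb bin (y, times the library median) against the distance from the middle of the span in Mb (x) for the 5 domains without an overlapping domain in the other line, F3-152 in blue and F3-600 in red, with the span in grey and the threshold of 10 as a dotted line. On chromosomes 1, 9 and 10 F3-600 stays at or below 2.59 over the span, and on chromosomes 3 and 6 F3-152 stays at or below 3.61.

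F3-600 alone had a domain on chromosome 6, from 48960001 to 50490000. There 98 of 153 bins were enriched in F3-600, with a mean level of 12.1, quartiles of 8.30 and 15.4 and a highest bin of 26.7. F3-152 had a mean of 1.88 over the same bins and a highest bin of 3.57, close to the median of 1.92 in its flanks. F3-600 was higher in 152 of the 153 bins. The fragments numbered 60129 (59649 to 60612) in F3-600 and 13160 (12936 to 13387) in F3-152, so the scaled ratio was 6.37 (6.25 to 6.49) towards F3-600. The level fell off gradually, with 10 bins to the left and 9 bins to the right of the span still at 5 times the median or more within 500 kb. F3-152 had no domain on this chromosome, and its highest stretch of 1 Mb, from 51680001 to 52680000, had a median level of 2.32 against 1.77 in F3-600.

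The second domain of F3-600 alone, on chromosome 3 from 79910001 to 80180000, was short and even. Of its 27 bins, 26 were enriched in F3-600, and the levels ran from 8.94 to 18.7 with a mean of 15.2. In F3-152 the bins ran from 1.20 to 3.61 with a mean of 2.23, so the bins of the lines did not overlap. The scaled ratio was 6.74 (6.47 to 7.03) towards F3-600, from 13293 (13068 to 13521) and 2748 (2646 to 2853) fragments. Only 1 bin outside the span reached 5 times the median within 500 kb in F3-600, so the edges were sharper than on chromosome 6. This domain lay 5.66 Mb to the left of the shared domain of chromosome 3, just beyond the limit of 5 Mb for a shift, so that F3-600 had 2 domains on the chromosome and F3-152 had 1.

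On chromosome 9 the broad domain of F3-152 spanned 53770001 to 55120000 and had no counterpart in F3-600. Its 135 bins had a mean level of 15.8 in F3-152, with 103 of them enriched, and a mean of 1.47 in F3-600, where the highest bin was at 2.50. The fragments numbered 97143 (96533 to 97756) in F3-152 and 6438 (6282 to 6597) in F3-600, a scaled ratio of 10.8 (10.6 to 11.1). Levels of 5 times the median or more continued in F3-152 over 13 bins to the left and 12 to the right within 500 kb. B73 was enriched in 118 of the 135 bins with a mean of 25.8, unlike at the other 4 regions without an overlapping domain in the other line, where its mean was between 0.948 and 1.48.

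The call of a shift on chromosome 9 rested on a narrow site at 57.5 Mb. It spanned 57390001 to 57540000 and was itself a shared domain, with 10 enriched bins in F3-152, 13 in F3-600 and 10 in common. The mean level was 44.9 in F3-152 and 57.5 in F3-600, driven by a few bins of up to 251 and 328, while the upper quartiles were 14.9 and 18.3. The scaled ratio was 0.757 (0.745 to 0.769), and 14 of 15 bins were higher in F3-600. Only 47.8% of the reads in F3-152 and 51.6% in F3-600 had a distinct start, end and strand there, against 96.3% and 96.4% over all bins, and 65.2% and 62.5% had a mapping quality of at least 30, against 87.4% and 86.9%. With 1 read kept per start, end and strand, the site was called as a domain in F3-600 and no longer in F3-152. With each domain used in at most 1 pair, a setting added after seeing the data, the shift was no longer counted, and the chromosome held 1 shared narrow site and 1 broad domain in F3-152 without a partner.

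The domain of chromosome 10 near 52.2 Mb was the most alike of the broad shared domains in bin overlap. It began at 51560001 in F3-152 and 30 kb earlier in F3-600, and ended at 52780000 in both. Of 107 bins enriched in either line, 96 were enriched in both, and no bin of the span differed by 4 times. The mean level was 19.5 in F3-152 and 20.9 in F3-600, a scaled ratio of 0.939 (0.931 to 0.947). To the left of a stretch of 60 kb below the median in both lines, the ratio over 940 kb was 1.01 (0.996 to 1.02). To the right, over 250 kb, it was 0.743 (0.729 to 0.757), where the highest bin stood at 80.01 in F3-152 and 181 in F3-600. The small difference of the whole domain thus lay in the right stretch.

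On chromosome 4 the domain had identical ends in both lines, 109090001 and 110490000. F3-152 had 59 enriched bins and F3-600 had 55, with 49 in common. The mean level was 10.7 in F3-152 and 10.4 in F3-600, a scaled ratio of 1.04 (1.02 to 1.05) whose direction turned with 1 read kept per position, with scaling to all reads or in enriched bins only. Under this equal mean, 22 bins were at least 4 times higher in F3-152 and 0 in F3-600. They formed a run of 16 bins from 109470001 to 109630000 and another of 6 bins from 109700001 to 109760000. In the longer run the median level was 6.23 in F3-152, 0.0938 in F3-600 and 17.3 in B73, and the scaled ratio was 37.7 (30.8 to 46.6) from 5040 and 96 fragments. The shorter run had means of 6.38 in F3-152 and 0.180 in F3-600, with a ratio of 32.9 (23.9 to 46.7). Over these runs F3-600 had almost no reads, and the median bin of each run was above the library median in F3-152 and in B73.

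Chromosome 5 had the longest domain of F3-152, from 104310001 to 106420000, and in F3-600 the domain was called shorter at both ends. The left end lay 100 kb and the right end 380 kb further inwards in F3-600. At the left end this rested on the threshold of 10. The enriched bins of F3-152 in these 100 kb stood at 10.4 to 14.3, and at 6.92 to 9.34 in F3-600. Within 500 kb further left, 4 bins of F3-600 were at 5 times the median or more. F3-152 had 123 enriched bins and F3-600 had 77, of which 76 were enriched in both, so that nearly all enriched bins of F3-600 lay within those of F3-152. The mean level was 14.5 in F3-152 and 9.28 in F3-600, a scaled ratio of 1.56 (1.55 to 1.58), and 167 bins were higher in F3-152 against 16 in F3-600. Beyond a stretch of 190 kb with few reads in either line, the last 160 kb of the domain had a mean of 11.7 in F3-152 and 1.54 in F3-600, and all 16 bins there were at least 4 times higher in F3-152, with a ratio of 7.56 (7.04 to 8.14). Inside the domain, 6 bins from 105520001 to 105580000 had a median level of 19.1 in F3-152, 0.109 in F3-600 and 33.3 in B73. Their scaled ratio of 93.1 (68.8 to 129), from 5448 and 42 fragments, was the largest of the 6 runs of at least 5 such bins within the shared domains, all of which were higher in F3-152. Over the whole domain 52 bins of F3-600 were below 0.25 times its median, against 29 of F3-152, and 20 of these 52 reached 0.5 times the median in F3-152.

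The shared domain of chromosome 3 began at 85840001 in both lines and ended at 87020000 in F3-152 but 680 kb earlier in F3-600. The mean levels over the longer span were close, at 7.48 in F3-152 and 7.70 in F3-600, with a scaled ratio of 0.948 (0.934 to 0.962) that turned to the other direction when reads with a mapping quality below 30 were left out. This near equality was made of opposite differences on either side of a stretch of 330 kb that had few reads in both lines. To the left, over 510 kb, the mean was 9.88 in F3-152 and 15.6 in F3-600, and the ratio towards F3-600 was 1.61 (1.58 to 1.64), with 44 of 51 bins higher in F3-600. To the right, over 340 kb, the mean was 11.1 in F3-152 and 3.30 in F3-600, and the ratio towards F3-152 was 3.42 (3.30 to 3.55). F3-152 had 16 enriched bins on that side and F3-600 had 0. Common bins made up 58.6% of the 29 enriched bins of F3-600, the smaller domain, where the limit for a shared domain was 50%, and 51.5% of the 33 of F3-152. With a limit of 75% this domain counted as shifted. The places where these domains were split were chosen after their profiles had been seen.

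**Figure D3:**
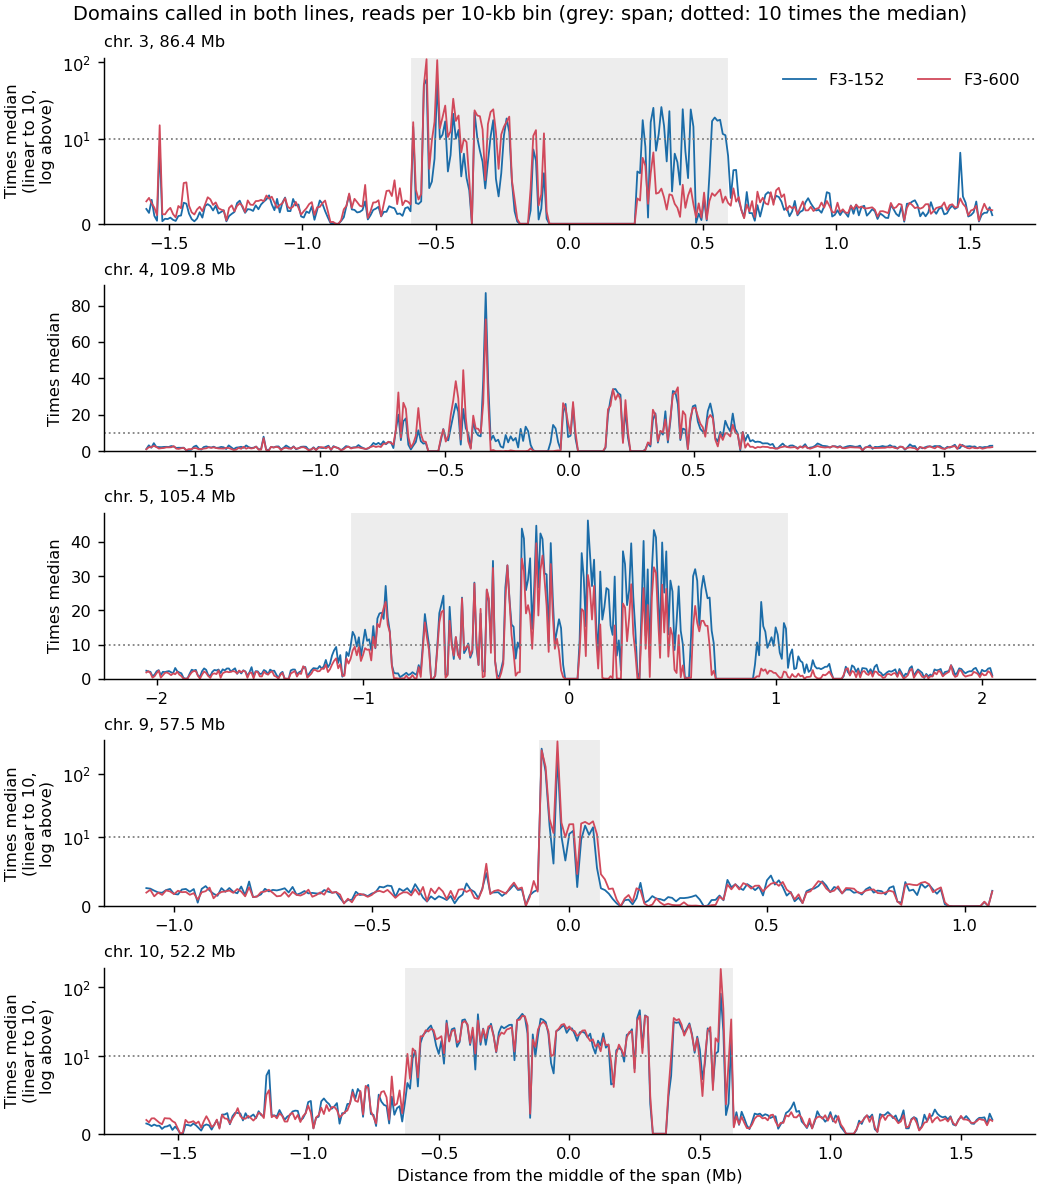
Level of each 10-kb bin (y, times the library median; in the panels of chromosome 3, chromosome 9 and chromosome 10 the axis is linear to 10 and logarithmic above) against the distance from the middle of the span in Mb (x) for the 5 shared domains, F3-152 in blue and F3-600 in red, with the longer span in grey and the threshold of 10 as a dotted line. The lines run together on chromosome 10, F3-152 continues beyond the right end of F3-600 on chromosomes 3 and 5, and F3-600 is near 0 in the middle left part of chromosome 4 where F3-152 is not.

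Chromosomes 2, 7 and 8 had no domain in either line. Their highest stretches of 1 Mb had a median level of 1.96 in F3-152 and 1.60 in F3-600 on chromosome 2, of 2.27 and 1.78 on chromosome 7, and of 2.23 and 1.86 on chromosome 8. Each chromosome had only small enriched sites, with 13 bins enriched in either line on chromosome 7 and 10 of them in both, and 13 with 12 in both on chromosome 8. On chromosome 2 there were 3 enriched bins in F3-152 and 2 in F3-600, with none in common. Since only reads of a mapping quality of 20 or more were in the tables, CENH3 on repeated sequence could not be seen, and a chromosome without a domain is not shown to lack a centromere.

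Over all chromosomes 818 bins were enriched in at least 1 of the lines, and 317 of them in both, which is 38.8% (exact interval 35.4% to 42.2%). The common bins were 49.2% of the 644 enriched bins of F3-152 and 64.6% of the 491 of F3-600. Neighbouring bins are not independent, so the interval is narrower than the real uncertainty. The overlap differed widely between chromosomes. It was 6 of 109 bins on chromosome 6, 11 of 117 on chromosome 9 and 21 of 127 on chromosome 1, where one of the lines had a broad domain without a partner. It was 23 of 83 on chromosome 3, 82 of 132 on chromosome 5, 99 of 149 on chromosome 10 and 53 of 70 on chromosome 4. Chromosomes 3 and 10 also held a domain of one line only. These had 26 enriched bins at 80.0 Mb of chromosome 3 and 33 at 12.3 Mb of chromosome 10, with 0 in common. Within the shared domains 248 of 354 bins, or 70.1%, were enriched in both lines.

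The bins enriched in both lines were selected on the level of each line, which leaves out bins where the lines differed strongly, so the closeness of their levels is a description only. The log2 ratio of F3-152 over F3-600 in the 317 common bins had a median of 0.02 with quartiles of -0.30 and 0.25. In 306 of them, or 96.5%, the lines were within 2 times of each other, and 165 were higher in F3-152 against 152 in F3-600. Bins enriched in one line only were mostly far from the threshold in the other. Of the 327 enriched in F3-152 only, 221 had a level below 2 in F3-600 and 40 a level from 5 to 10. Of the 174 enriched in F3-600 only, 52 were below 2 in F3-152, 82 between 2 and 5, and 40 between 5 and 10. Just inside the limit, 13 bins of the first set and 11 of the second had a level between 9 and 10 in the other line.

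**Figure D4:**
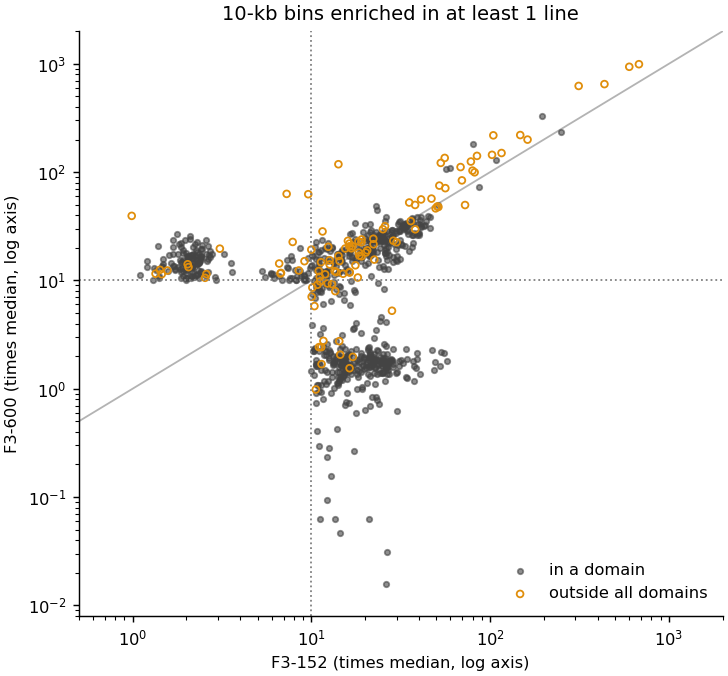
Level in F3-600 (y) against the level in F3-152 (x), both in times the library median on log axes, for the 818 bins of 10 kb enriched in at least 1 line; filled points lie in a domain, open circles outside all domains, dotted lines mark the threshold of 10 and the grey line equal levels. The points form 3 groups, with 317 bins enriched in both lines along the line of equal levels, and separate groups near a level of 2 in the other line.

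Small enriched sites outside the domains were mostly common to both lines. F3-152 had 46 such sites and F3-600 had 36, with 87 enriched bins in each line, and 69 of these bins were the same. In each line 32 of the sites had an enriched bin of the other line. They held 2.03% of the reads in F3-152 and 3.05% in F3-600. Sites with a partner were thus 69.6% of those in F3-152 and 88.9% of those in F3-600.

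Within the domains the finer pattern was also compared, in windows of 1 kb. Over the shared domains Spearman's rho between the lines was 0.891 on chromosome 3 (1180 windows), 0.877 on chromosome 4 (1400), 0.861 on chromosome 5 (2110), 0.851 on chromosome 9 (150) and 0.898 on chromosome 10 (1250). In the domains of one line only it was 0.279 on chromosome 1, 0.278 on chromosome 3, 0.378 on chromosome 6 and 0.473 on chromosome 9, but 0.797 at 12.3 Mb of chromosome 10. These values describe windows that share the same uniquely mappable sequence, and windows empty in both lines add to them. Such windows made up 42.6% of the shared domain on chromosome 3, 26.2% of the region at 12.3 Mb on chromosome 10 and 2.45% of the domain on chromosome 1.

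Fragment length differed between the lines in the same way inside and outside the domains. In F3-152 the median was between 158 and 160 bp in its 8 domains and 170 bp outside all domains. In F3-600 it was between 274 and 307 bp in its 7 domains and 306 bp outside. Counted with paired fragments under 200 bp in both lines, an alternative added after seeing the data, the numbers of domains and of shared, shifted and single-line domains were the same as with all reads. The bins at least 4 times higher in one line, given next, did change in number under this alternative.

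The fold ratio was then taken over all bins with at least 10 reads in either library, with 1 read added to each count. Among 194076 such bins, 6192 were at least 4 times higher in F3-152, or 3.19%, and 4501 were at least 4 times higher in F3-600, or 2.32%. With paired fragments under 200 bp, the counts were 3848 and 1144. This setting kept 71.4% of the paired fragments of F3-152 but 22.3% of those of F3-600. The minimum of 10 and the added 1 were unchanged, so fewer bins of F3-600 could reach the minimum. The loss of depth and the kind of fragment can therefore not be told apart in these counts. The middle 50% of the ratios lay between 0.767 and 1.36. In the domains of either line the shares were 38.7% towards F3-152 and 15.3% towards F3-600, of 1042 bins, which follows in part from the domains having been called on the same levels. Most of the bins that differed were not CENH3 domains. Of those higher in F3-152, 403 lay in domains, and 90.6% had a level below 2 in F3-152. Their median was 0.822 in F3-152, 0.0938 in F3-600 and 0.938 in B73. Those higher in F3-600 had medians of 0.781 in F3-600, 0.1 in F3-152 and 0.813 in B73, and 93.6% had a level below 2. These bins thus stood near the typical level in one F3 line and in B73, and well below it in the other F3 line.

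The share of such bins varied by chromosome and by direction. Towards F3-152 it was highest on chromosome 5 at 6.18% and lowest on chromosome 8 at 0.757%. Towards F3-600 it was highest on chromosome 6 at 5.89% and lowest on chromosome 10 at 0.776%. Bins without any read in F3-600 but at 0.5 times the median or more in F3-152 numbered 129, and 48 were the other way round. Another 4448 bins had no read in either line.

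Outside the domains, bins at least 4 times higher in one line also lay in unbroken runs. There were 141 runs of at least 5 bins towards F3-152, with 936 bins, and 83 towards F3-600, with 547 bins, and the longest had 17 bins in each direction. The 5 longest towards F3-152 lay on chromosome 5 (150110001 to 150280000 and 25670001 to 25790000), chromosome 3 (47960001 to 48120000) and chromosome 1 (279450001 to 279580000 and 224260001 to 224390000). Of 3 runs with 12 bins, only that with the most reads is among the 5. In the 5 runs the median level was between 1.01 and 1.84 in F3-152 and between 0.109 and 0.188 in F3-600, and the scaled ratios were between 7.04 and 12.0. None of them reached the level of a CENH3 domain in F3-152. The highest median of the 141 runs in F3-152 was 4.48, in 10 bins from 106420001 to 106520000 on chromosome 5. That run adjoined the right end of the F3-152 domain there, and its medians were 0.594 in F3-600 and 9.88 in B73.

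Of the 5 longest runs towards F3-600, 4 were of the same kind. They lay on chromosome 2 (125030001 to 125200000 and 153960001 to 154100000), chromosome 3 (123340001 to 123460000) and chromosome 6 (112530001 to 112650000), with median levels between 0.805 and 1.44 in F3-600 and between 0.0889 and 0.139 in F3-152. The remaining run, on chromosome 3 from 25630001 to 25750000, stood apart by its level. Its 12 bins had a median of 8.05 in F3-600 with a highest bin of 13.3, and 4 of them were enriched. F3-152 had a median of 1.26 there and B73 0.641, and the scaled ratio towards F3-600 was 7.10 (6.52 to 7.74) from 3261 and 640 fragments. It was too small to count as a domain, and its median lay between those of the other runs and the median of 15.5 in the short domain of F3-600 at 80.0 Mb. With a threshold of 5, or with at least 5 enriched bins per domain, a domain was called at this site in F3-600 and not in F3-152.

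Along the chromosomes the background itself shifted between the lines in long blocks. In windows of 1 Mb, with blocks defined after seeing the data as at least 10 Mb whose smoothed log2 ratio stayed beyond 0.4, there were 8 blocks with a total of 201 Mb on 7 chromosomes. Of these, 5 were towards F3-600, on chromosome 2 (123 to 157 Mb), chromosome 6 (0 to 13 Mb), chromosome 9 (61 to 74 Mb and 76 to 139 Mb) and chromosome 10 (17 to 51 Mb), with median log2 ratios between -0.68 and -0.61. The other 3 were towards F3-152, on chromosome 3 (11 to 34 Mb), chromosome 5 (89 to 100 Mb) and chromosome 7 (145 to 155 Mb), with medians between 0.51 and 0.72. With a minimum of 20 Mb there were 4 blocks on 4 chromosomes with 154 Mb, and with a limit of 0.5 there were 7 on 5 chromosomes with 135 Mb. The 1903 windows outside the blocks had a median of 0.06 with quartiles of -0.07 and 0.19.

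Block levels stayed within the range of background and did not approach CENH3 enrichment. On chromosome 9 from 76 to 139 Mb the median level was 0.544 in F3-152, 0.875 in F3-600 and 1.03 in B73, and all 63 windows had the same sign. In the 5 Mb on either side of it, without enriched bins, the medians were 0.417, 0.484 and 0.875. On chromosome 10 from 17 to 51 Mb the medians were 0.844, 1.39 and 1.13, and in its flanks, taken in the same way, they were 1.87, 1.38 and 1.13. On chromosome 9, F3-152, F3-600 and B73 were thus all higher in the block than in its flanks, and the left flank took in the end of the block from 61 to 74 Mb. On chromosome 10, F3-152 was lower in the block than in its flanks, which hold the surroundings of both domains of the chromosome. The block of chromosome 10 ended 0.53 Mb before the shared domain of the chromosome and began 4.23 Mb after the domain of F3-152 at 12.3 Mb. On chromosome 9 the nearer block began 5.88 Mb after the broad domain of F3-152 and 3.46 Mb after the shared narrow site, so no block overlapped a domain on these chromosomes.

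**Figure D5:**
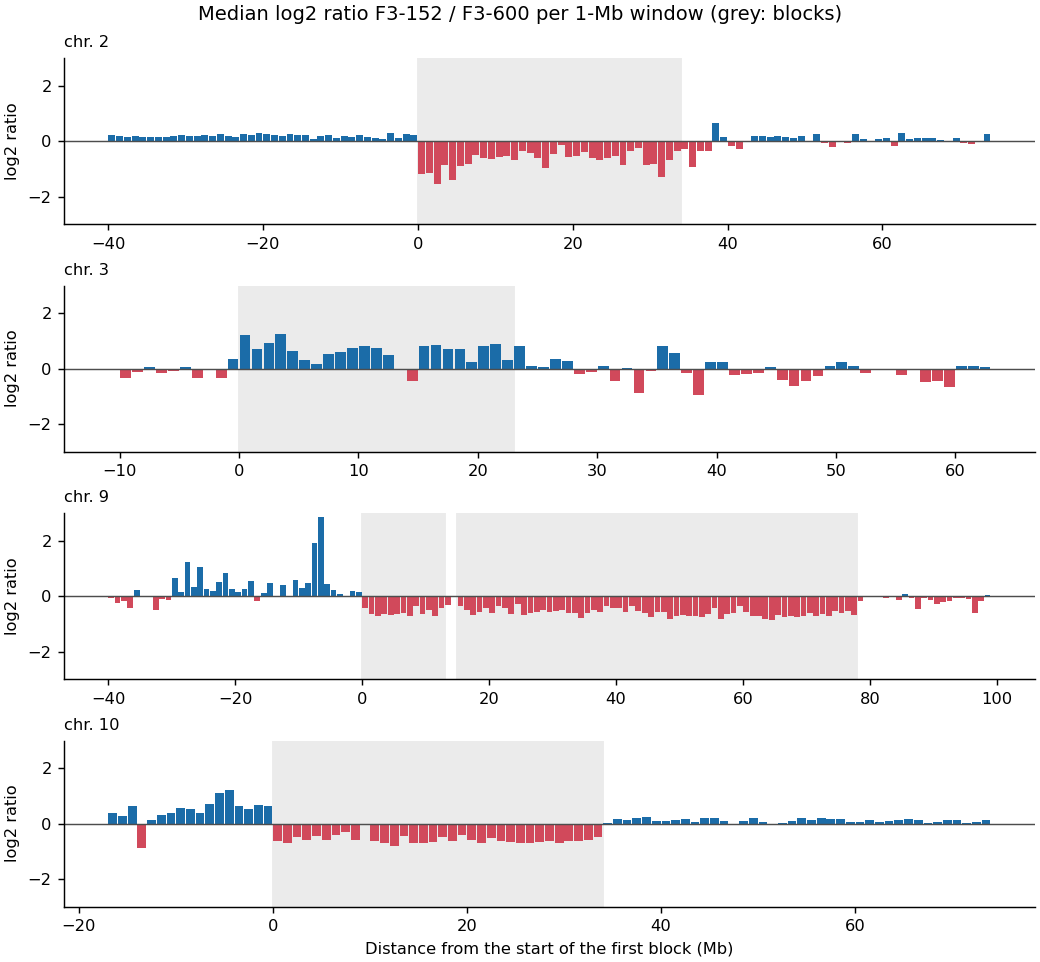
Median log2 ratio of F3-152 over F3-600 per window of 1 Mb (bars, blue above 0 and red below) against the distance from the start of the first block in Mb, for chromosomes 2, 3, 9 and 10, with the blocks in grey. On chromosomes 2, 9 and 10 the bars turn below 0 at the start of the block and stay there to its end, at medians between -0.63 and -0.61, and on chromosome 3 they stand mostly above 0.

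The fold ratios at the domains can be set beside these background shifts. The blocks moved the ratio of the lines by factors between 1.42 and 1.64, whereas the domains without an overlapping partner differed by factors between 6.37 and 13.1. The ratio of 1.56 at the shared domain of chromosome 5 was within the range of the blocks, and the nearest block, towards F3-152 as well, ended 4.31 Mb before it. In the flanks of that domain the median level was 2.21 in F3-152 and 1.40 in F3-600. At 12.3 Mb of chromosome 10, where the ratio was 13.1, the flanks also differed towards F3-152. Their medians were 1.79 in F3-152 and 0.828 in F3-600. The part of the background shift in the ratio of either domain was not tested.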

How the data were processed

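The authors precipitated CENH3 chromatin from young leaves, selected fragments by gel and sequenced paired ends. The submitters' processing notes list CASAVA, BWA and B73 RefGen_v4, and the paper's methods state unique mapping for B73 only. Each deposited row is an aligned read, given by position, strand and mapping quality, a score from 20 to 60 that the authors did not normalize. Duplicate removal is not given in the sources used here.

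All reads on chromosomes 1 to 10 were assigned to 10-kb bins by their midpoint and scaled to the median of non-empty bins, 90 reads in F3-152 and 64 in F3-600. Named are all domains, and the 5 longest runs per line outside them. The members and lists were chosen with earlier results of these data known. Intervals at 95% were exact Poisson for fragments, exact conditional binomial for their ratio, and exact binomial for shares. Mates and duplicates are not independent molecules, so intervals over fragments, with duplicates kept, are too narrow. The calling of domains was checked with simulated libraries. The alternatives were bins of 50 kb, other thresholds, merging distances, domain sizes and shares of common bins, other folds, minimum reads and reads added, a mapping quality of at least 30, 1 read per start, end and strand, thinning of F3-152, scaling to all reads, fragments in place of reads, and enriched bins only. The software was SciPy 1.17.1, NumPy 2.4.6, PyArrow 21.0.0, pandas 2.3.3, Python 3.11.15 and, for plots, Matplotlib 3.10.9. A genome sequence and annotation of this build were not used here, so genes, repeats and sequences were not analysed.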

Additional observations from a re-analysis of the deposited data

Results flagged for a closer look

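Reads on the organelle genomes, which no comparison above uses, exceeded the share in the control line B73 for the chloroplast in both F3 lines and for the mitochondrion in F3-152. The chloroplast took 0.219% of the aligned reads in F3-152 (exact 95% interval 0.217% to 0.221%) and 0.0349% in F3-600 (0.0340% to 0.0359%), against 0.0289% in B73 (0.0277% to 0.0301%). The mitochondrion took 0.120% in F3-152 (0.119% to 0.122%) against 0.0546% in B73 (0.0529% to 0.0562%), and F3-600 was below B73 with 0.0353% (0.0343% to 0.0363%). F3-152 was thus above F3-600 for both organelles. The lines were not tested against each other, and the intervals cover counting error only.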

How the results depend on the processing

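Of 124 values of the counts and the overlap, 93 stayed within 1.5 times of the reported value, or for the overlap within its interval. Some of the 93 could not change. The counts of bins at least 4 times higher use neither the enrichment threshold nor the merging distance, and the overlap does not use the merging distance. Bins of 50 kb, which keep the minimum of 10 bins, gave 5 domains in F3-152, 4 in F3-600, 3 shared, 0 shifted, 1 in F3-600 only, and 530 and 314 bins at least 4 times higher in F3-152 and in F3-600. A threshold of 5 gave 2 shifted and 1 in F3-152 only, and a threshold of 20 gave 3 shared, 0 shifted and an overlap of 42.4%. Merging over 100 kb gave 8 shifted, and over 1000 kb 2 shifted and 1 in F3-152 only. With 1 read per start, end and strand there were 3 shared and 2 shifted domains. The narrow site of chromosome 9, no longer called in F3-152, was among the shared domains lost. Another was still called in both lines but counted as shifted. At least 5 enriched bins per domain gave 12 domains in F3-600, 8 shared, 4 shifted and 4 in F3-600 only. A limit of 75% common bins gave 2 shifted, and each domain in at most 1 pair gave 0. A fold of 2 gave 19004 bins towards F3-152 and 16681 towards F3-600, and a fold of 8 gave 2386 and 1520. A minimum of 50 reads gave 2254 towards F3-600, 5 reads added gave 3608 towards F3-152, and fragments under 200 bp gave 3848 and 1144. The cause of these changes was not tested, except that larger bins, folds, added counts and minimum reads leave fewer bins by construction. Fragments under 200 bp also lowered the depth, and more so in F3-600 than in F3-152.

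In each of 12 alternative settings, the domains on chromosome 1 and at 54.4 Mb of chromosome 9 were called in F3-152 and not in F3-600, and that on chromosome 6 the other way round. F3-600 nevertheless had a domain elsewhere on chromosome 1 in some settings. It lay at 137000001 to 137460000 with a threshold of 5 and at 135950001 to 137120000 with merging over 1000 kb. With at least 5 enriched bins per domain it lay at 137000001 to 137120000. Each of these lay within 5 Mb of the F3-152 domain of chromosome 1, which then counted as shifted rather than in F3-152 only. The domain at 12.3 Mb of chromosome 10 was called in 11 settings, and that at 80.0 Mb of chromosome 3 in 10, never in the other line. Of the shared domains, those on chromosomes 4 and 5 and at 52.2 Mb of chromosome 10 were called in both lines in all 12. That at 86.4 Mb of chromosome 3 was called in 10 in F3-152 and 11 in F3-600, and that at 57.5 Mb of chromosome 9 in 8 and 10. The log2 ratio ran from -0.09 to 0.03 at 86.4 Mb of chromosome 3 and from -0.03 to 0.05 on chromosome 4, and no other domain changed sign. The size of the ratios was less stable than their intervals. Of 50 alternative log2 ratios at the domains, 32 moved by more than the counting error of the reported value. The log2 ratio ran from 3.27 to 3.71 on chromosome 1 and from 3.44 to 4.12 at 12.3 Mb of chromosome 10. No paired analysis was possible because each line had 1 library. Depth limits the lowest bins, which hold few reads of a median of 64 in F3-600.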
